A study of Mus musculus with 16 samples.

Results

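Expression of the acetylcholine receptors of the sympathetic ganglion was examined in explants of the mouse superior cervical ganglion (SCG), cultured alone or across a membrane from fibroblasts. The receptors were taken as 8 protein-coding genes, found by their exact symbols among the 21684 protein-coding genes (56941 genes of all kinds) of the nerve table: Chrna3, Chrna4, Chrna5, Chrna7, Chrnb2, Chrnb4, Chrm1 and Chrm2. All 8 were present once. The rule itself used names only.

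RNA was sequenced in bulk from SCG explants cultured alone (SCG, n = 3 libraries), with NIH 3T3 cells, an immortalized mouse embryonic fibroblast line (SCG+MEF, n = 3), or with mPSC1 cells, an immortalized line of pancreatic stellate cells (SCG+PSC, n = 4). Stellate cells are fibroblasts of the pancreas from which tumor fibroblasts can arise. The explants came from wild-type C57BL/6J pups of postnatal day 1 to 4, with 8 to 13 explants in a well and 10000 fibroblasts on the insert for about 70 hours, so that medium was shared without contact. The explants had been loosened with collagenase and washed in medium that held nerve growth factor, and each fibroblast group rests on a single cell line. A separate table held mPSC1 cells cultured alone (PSC, n = 3) or with explants (PSC+SCG, n = 3). The sources used here do not say that same-group libraries came from separate litters, so p-values measure the spread between these libraries.

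Fast transmission in a sympathetic ganglion runs through nicotinic receptors, pentameric cation channels opened by the acetylcholine that preganglionic axons release. The ganglionic receptor is built mainly from α3 subunits (Chrna3) with β4 (Chrnb4), into which α5 (Chrna5) or β2 (Chrnb2) can be incorporated. The α4 subunit (Chrna4) pairs with β2 in the main nicotinic receptor of the brain, and α7 (Chrna7) forms homomeric channels with a high calcium permeability. Slow transmission uses muscarinic receptors, which couple to G proteins: M1 (Chrm1) acts through Gq and closes the M current potassium channels of sympathetic neurons, and M2 (Chrm2) acts through Gi/o.

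In the GENCODE M39 annotation of the GRCm39 assembly, 3 of the members lie side by side on chromosome 9. Chrna5 (ENSMUSG00000035594.11) spans chr9:54888164-54918184 on the plus strand. Chrna3 (ENSMUSG00000032303.9) spans chr9:54917395-54933941 on the minus strand, and Chrnb4 (ENSMUSG00000035200.8) spans chr9:54935438-54956076 on the minus strand. The 3 gene records cover 67913 bases. The records of Chrna5 and Chrna3 share 790 bases at their 3′ ends on opposite strands, where no exon of a basic transcript is shared, and 1496 bases separate Chrna3 from Chrnb4. The other members are single genes: Chrna7 at chr7:62731494-62862322 (minus), Chrna4 at chr2:180660173-180685339 (minus), Chrnb2 at chr3:89653502-89671953 (minus), Chrm1 at chr19:8640962-8662278 (plus) and Chrm2 at chr6:36364718-36505582 (plus). Exon bases that also lie in a gene of the opposite strand made up 16.2% in Chrnb2, 9.68% in Chrm2 and 4.23% in Chrm1, and no member shared exon bases with a gene of its own strand. Reads were counted by strand.

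The 200 bases before the outermost annotated start are shown for the 3 clustered genes and for Chrm1, since these were the members that varied most closely with Chrna3 over the nerve libraries. Capitals mark matches to the E box (CANNTG, which reads the same on both strands), the motif bound by basic helix-loop-helix factors such as Hand2. Each sequence is GRCm39, written 5′ to 3′ on the strand of its gene.
Chrna3, chr9:54933942-54934141, minus strand: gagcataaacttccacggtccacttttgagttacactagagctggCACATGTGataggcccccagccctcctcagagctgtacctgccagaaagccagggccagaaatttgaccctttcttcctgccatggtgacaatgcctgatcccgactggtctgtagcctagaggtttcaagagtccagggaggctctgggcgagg
Chrnb4, chr9:54956077-54956276, minus strand: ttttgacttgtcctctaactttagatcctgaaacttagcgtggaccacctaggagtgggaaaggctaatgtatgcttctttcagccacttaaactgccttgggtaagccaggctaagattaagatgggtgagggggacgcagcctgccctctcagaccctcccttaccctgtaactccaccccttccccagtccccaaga
Chrna5, chr9:54887964-54888163, plus strand: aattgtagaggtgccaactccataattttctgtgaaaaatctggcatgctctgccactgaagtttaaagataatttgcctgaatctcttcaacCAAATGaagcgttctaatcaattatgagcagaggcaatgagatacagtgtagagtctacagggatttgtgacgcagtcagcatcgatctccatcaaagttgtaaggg
Chrm1, chr19:8640762-8640961, plus strand: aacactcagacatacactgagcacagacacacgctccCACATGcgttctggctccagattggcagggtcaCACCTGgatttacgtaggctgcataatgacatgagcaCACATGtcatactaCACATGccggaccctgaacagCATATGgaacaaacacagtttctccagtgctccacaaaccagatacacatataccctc

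The Chrm1 window held 5 E boxes, the Chrna3 window 2 that overlap each other, the Chrna5 window 1 and the Chrnb4 window 0. At least 1 E box was present in 57.0% of 21770 windows of the same length before protein-coding genes. No window of the 4 held a GC box (GGGCGG on either strand), which 30.7% of all windows held, and none held TATAAA on either strand, which 9.87% held. Their GC content was 55% for Chrna3, 51.5% for Chrnb4, 40.5% for Chrna5 and 49% for Chrm1, against a median of 53% over all windows. A match describes these letters only and is no evidence of binding, and GC boxes or E boxes may lie outside the windows.

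Reads on genes ranged from 32013901 to 39197230 in the 9 nerve libraries whose reads, recovered from the normalized counts, were accepted. The libraries held the genes of their label: the summed normalized count of 7 noradrenergic markers, among them Th, Dbh and Slc18a2, was 59129 to 157982 in the nerve libraries. That of 13 pan-neuronal markers was 168872 to 300376. Satellite glia and Schwann markers (8 genes) summed to 59087 to 80932, fibroblast markers (7 genes) to 323364 to 499867, macrophage markers (9 genes) to 7840 to 12123 and endothelial markers (7 genes) to 3882 to 5122, and no listed gene was at 0 in all libraries of a nerve group. The explants were therefore mixed tissue, and in bulk RNA fewer neurons and less receptor RNA per neuron cannot be told apart. Libraries stood apart by replicate number. The libraries numbered 3 had the highest value, and those numbered 2 the lowest, in all 3 groups for Chrna3, Chrnb4, Chrna5 and Chrm1.

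Chrna3 was the most abundant receptor transcript of the ganglion. Its normalized count was 4738, 3104 and 6747 in the SCG libraries, 4752, 4297 and 6305 in SCG+MEF, and 3812, 2858, 4909 and 4720 in SCG+PSC. Every library numbered 2 lay lowest in its group, and the groups overlapped.

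Chrnb4, its usual partner, read 1284, 609 and 2662 in SCG, 1390, 1154 and 2274 in SCG+MEF, and 942, 694, 1379 and 1224 in SCG+PSC. The highest library of SCG was 4.37 times the lowest of all 10 nerve libraries, which was also an SCG library. Chrna5, an accessory subunit, read 1043, 654 and 2566 in SCG, 1433, 955 and 3008 in SCG+MEF, and 1105, 727, 1650 and 1632 in SCG+PSC. It had the widest range of the members, with a ratio of 4.60 between the highest and lowest library. In both genes the 3 groups overlapped.

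Chrnb2 varied less. It read 2283, 1363 and 2557 in SCG, 2449, 1789 and 2222 in SCG+MEF, and 2257, 1618, 2407 and 2326 in SCG+PSC, a ratio of 1.88 between the extremes. Chrna4 was scarce, with 74.9, 36.1 and 54.3 in SCG, 60.8, 26.3 and 42.6 in SCG+MEF, and 48.9, 24.3, 43.8 and 52.4 in SCG+PSC. Its lowest library was the one numbered 2 in every group, and its highest of the first 3 was the one numbered 1.

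Chrna7 read 68.8, 71.3 and 69.7 in SCG, close to each other. In SCG+MEF it read 98.3, 78.0 and 156, and in SCG+PSC 72.9, 57.8, 132 and 124. All SCG+MEF libraries lay above all SCG libraries, while SCG+PSC libraries lay on both sides of them.

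Chrm1 read 1135, 683 and 1704 in SCG, 1432, 981 and 1622 in SCG+MEF, and 938, 673, 1110 and 1049 in SCG+PSC. Chrm2 read 1731, 1439 and 1670 in SCG, 1575, 1629 and 2102 in SCG+MEF, and 1737, 1395, 2369 and 2515 in SCG+PSC. In Chrm1 the highest SCG+PSC library was below the middle library of SCG, although the groups overlapped. In Chrm2 the 2 highest libraries of all were SCG+PSC libraries 3 and 4.

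**Figure D1:**
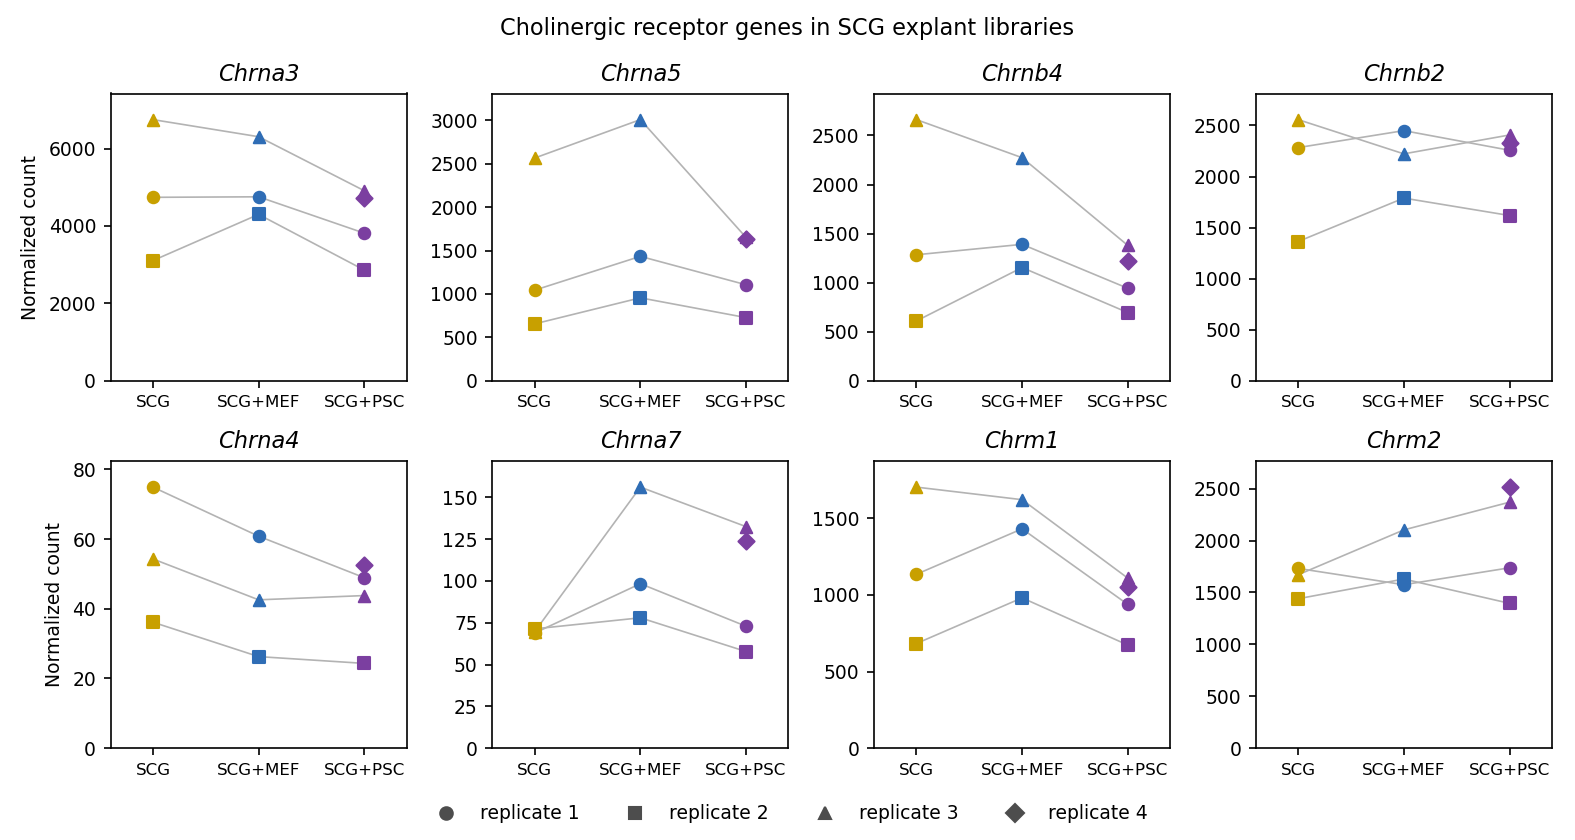
Normalized counts of the 8 receptor genes (vertical axes, linear, starting at 0) in each nerve library, by group; marker shapes give the replicate number, and grey lines join libraries of the same number 1 to 3. In Chrna3, Chrnb4, Chrna5 and Chrm1 the replicate 3 triangles lie above and the replicate 2 squares below in every group, and all 3 lines of Chrm1 descend from SCG+MEF to SCG+PSC.

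Levels of different genes were compared as normalized count per kilobase of merged exons of basic transcripts. In SCG explants cultured alone the mean was 907 ± 340 (SD, n = 3) for Chrna3, 450 ± 320 for Chrna5, 406 ± 280 for Chrnb4, 246 ± 74.3 for Chrnb2, 245 ± 23.3 for Chrm2, 151 ± 65.8 for Chrm1, 12.5 ± 0.226 for Chrna7 and 11.5 ± 4.06 for Chrna4. Of the 7 pairs of neighbours in this order, the library ranges did not overlap only between Chrm1 and Chrna7, and those of the other 6 pairs overlapped. Within a library some steps of the order were firmer than others. Chrna3 was above Chrna5 per kilobase in 10 of 10 nerve libraries, Chrna5 above Chrnb4 in 8 and Chrnb4 above Chrnb2 in 8. Chrnb2 was above Chrm2 in only 4. Chrm2 was above Chrm1 in 10, Chrm1 above Chrna7 in 10 and Chrna7 above Chrna4 in 9. These steps depend on the exon lengths used, which merge all basic transcripts and were 8.414 kb for Chrnb2 and 3.736 kb for Chrnb4. In normalized count, Chrnb2 was above Chrnb4 in SCG libraries 1 and 2 (2283 against 1284, 1363 against 609). In SCG library 3 it was below (2557 against 2662).

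Shares within a library do not depend on how libraries were scaled, although they do depend on the exon lengths used. Chrna3 made up 38.7% to 51.2% of the summed per-kilobase level of the 6 nicotinic members over the 10 nerve libraries. Chrna5 made up 17.8% to 31.3%, Chrnb4 14.4% to 22.9%, Chrnb2 8.69% to 16.7%, Chrna7 0.399% to 1.12% and Chrna4 0.294% to 0.845%. Transcripts of the subunits that build the ganglionic receptor thus made up nearly all of the sum in every library.

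The library ranges of the Chrna3 and Chrna5 shares overlapped between all groups. Chrna3 took a mean of 46.4% in SCG (40.5% to 51.2%), 43.7% in SCG+MEF (38.7% to 48.7%) and 44.2% in SCG+PSC (43.1% to 46.1%). Chrnb4 took 18.6% ± 4.25 (SD; n = 3, 3 and 4), 19.0% ± 0.896 and 16.3% ± 0.721 in the same order. Chrnb2 took 12.9% ± 2.71, 12.0% ± 2.93 and 15.1% ± 1.82, and Chrna5 20.7% ± 4.66, 24.0% ± 6.65 and 22.9% ± 2.53. The Chrnb2 mean in SCG+PSC lay above every library of SCG (9.77% to 14.6%) and SCG+MEF (8.69% to 14.3%). The SCG+PSC libraries themselves (13.5% to 16.7%) overlapped both, and this was not tested. The shares of Chrnb4 in SCG+MEF (18.3% to 20.0%) and SCG+PSC (15.7% to 17.4%) did not overlap, a description noted after the values were seen and not tested.

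**Figure D2:**
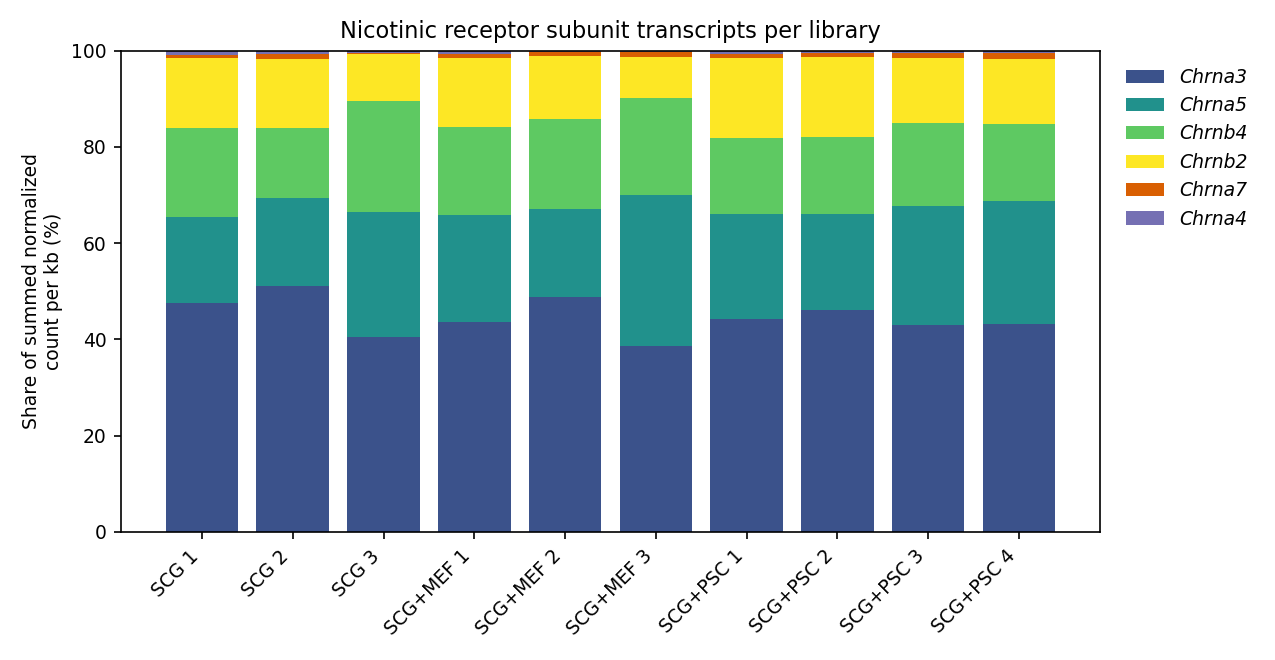
Share (%) of each of the 6 nicotinic subunit genes in their summed normalized count per kilobase, stacked to 100 for each of the 10 nerve libraries. Chrna3 is the largest segment in every library at 38.7% to 51.2%, and Chrna4 and Chrna7 together form the thin segments at the top.

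Much of the variation followed the replicate number. Over the 9 libraries numbered 1 to 3, the number accounted for 86.2% of the sum of squares of log2(normalized count + 1) in Chrnb2, 85.2% in Chrna5, 80.4% in Chrna4, 72.7% in Chrna3, 71.2% in Chrnb4, 68.3% in Chrm1, 64.0% in Chrm2 and 45.1% in Chrna7. The median over 12859 protein-coding genes with a mean of at least 50 was 60.8%. The group accounted for 1.80% (Chrnb2) to 30.1% (Chrna7), against a median of 13.8%. The geometric mean of Chrna5 was 1182 in the libraries numbered 1, 769 in those numbered 2 and 2336 in those numbered 3.

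The first comparison asked whether receptor transcripts differed in explants that had shared medium with stellate cells. Differences are log2 fold changes of normalized count + 1 from limma, and their p-values carry the Benjamini-Hochberg adjustment across every gene in the fit. A gene counts as called where the adjusted p did not exceed 0.05 and the log2 fold change was 0.5 or more in either direction. In SCG+PSC against SCG, 0 of the 8 members were called, where 0.0189% of 15908 protein-coding genes were (3 genes, with 659 at an unadjusted p under 0.05). With the replicate number as a block 0 of 8 were called, where 1.94% of genes were, and edgeR and DESeq2 on recovered reads called 0 with and without the block. The log2 fold change was −0.30 (SE 0.28) for Chrna3, −0.40 (SE 0.47) for Chrnb4 and −0.13 (SE 0.53) for Chrna5. It was −0.49 (SE 0.41) for Chrna4, −0.30 (SE 0.32) for Chrm1, 0.05 (SE 0.24) for Chrnb2, 0.15 (SE 0.19) for Chrm2 and 0.23 (SE 0.34) for Chrna7. The median over the members was −0.22, against 0.01 over all protein-coding genes tested.

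These intervals were wide. For Chrna3 the 95% interval ran from −0.92 to 0.33 without the block and from −0.51 to −0.08 with it, or 0.702 to 0.944 times the level in SCG. The adjusted p with the block was 0.238 for Chrna3, 0.445 for Chrnb4 and 0.330 for Chrm1. Chrna3, Chrna4 and Chrm1 were lower in SCG+PSC in all 3 same-numbered pairs, which held for 14.9% of all genes. The smallest of these differences was −0.02, in Chrm1 between the libraries numbered 2. Without the libraries numbered 2 and with the block, Chrnb4 was called at −0.70 (limma, adjusted p = 0.0139). In the pair left out, Chrnb4 was higher in SCG+PSC by 0.19 on the log2 scale.

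The second comparison concerned explants cultured with fibroblasts of another origin. In SCG+MEF against SCG, 0 of 8 members were called, where 0.0189% of genes were (3 genes, with 388 at an unadjusted p under 0.05), and 0 of 8 were called with the block, where 0.239% were. Chrna7 had the largest difference, 0.60 (SE 0.34, 95% interval −0.16 to 1.35, adjusted p = 1). Its groups did not overlap, which held in this direction for 2.95% of genes. With the block the adjusted p of Chrna7 was 0.603. Chrna5 differed by 0.41 (SE 0.53) and was, like Chrna7, higher in all 3 pairs, as were 17.4% of genes. With the block the SE of Chrna5 was 0.13, with a 95% interval of 0.13 to 0.69 (limma, adjusted p = 0.439). Intervals with the block also lay above 0 for Chrna7 (0.06 to 1.13) and Chrm1 (0.01 to 0.51), unadjusted for the number of genes. Chrna4 was lower in all 3 pairs, at −0.36 (SE 0.41), as were 10.2% of genes. The remaining 5 members differed by 0.10 to 0.27. The median over the 8 was 0.19, against 0.03 over all protein-coding genes tested.

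The third comparison held the presence of fibroblasts constant and changed their type. Without the block, 0 of 8 members were called in SCG+PSC against SCG+MEF, where 0% of genes were (0 genes, with 488 at an unadjusted p under 0.05; edgeR called 0 and DESeq2 18). With the block, 1 of 8 was called, where 1.14% of genes were. This was Chrm1, which was lower in SCG+PSC by −0.57 (SE 0.114, limma with the replicate block, adjusted p = 0.0433), a level of 0.675 times that in SCG+MEF with a 95% interval of 0.568 to 0.803. Same-numbered differences of Chrm1 were −0.61, −0.54 and −0.55, the most even of any member. The same estimate had an SE of 0.32 and an adjusted p of 1 without the block. edgeR with the block, where 1.29% of genes were called, gave −0.57 (adjusted p = 0.0343) and DESeq2 with the block −0.57 (adjusted p = 0.000995), and over 13 alternative fits that left out no library numbered 1 to 3 of the groups compared the adjusted p of Chrm1 ran from 0.000995 to 1.

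The call depended on which libraries entered. With the block, Chrm1 was called without the libraries numbered 2 (adjusted p = 0.0471) and not without those numbered 1 (adjusted p = 0.370) or 3 (adjusted p = 0.108), while its estimate stayed between −0.58 and −0.54 in these limma fits. Each of these fits rests on 6 libraries.

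A further 4 members were lower in SCG+PSC than in SCG+MEF in every same-numbered pair. With Chrm1 that made 5 of 8, where 20.7% of all genes were lower in all 3 pairs. Chrnb4, Chrm1 and Chrna5 varied closely with Chrna3 over the nerve libraries (Pearson r of 0.983, 0.962 and 0.932), so these are not separate results. Chrnb4 differed by −0.56, −0.73 and −0.72, Chrna3 by −0.32, −0.59 and −0.36, Chrna5 by −0.37, −0.39 and −0.87, and Chrna7 by −0.43, −0.43 and −0.24. None of these 4 was called by limma with the block, where the adjusted p was 0.119 for Chrnb4, 0.0727 for Chrna3, 0.0811 for Chrna5 and 0.617 for Chrna7. DESeq2 with the block called Chrnb4 (−0.67, adjusted p = 0.00448) and Chrna5 (−0.54, adjusted p = 0.00586) in addition to Chrm1, where 2.29% of genes were called, and gave Chrna3 an adjusted p of 0.00558 with a fold change under the limit. Chrnb2 (−0.05, SE 0.10 with the block, 95% interval −0.27 to 0.17), Chrm2 (0.03, −0.22 to 0.28) and Chrna4 (−0.13, −0.67 to 0.42) had differences of both signs among the pairs. The median over the members was −0.39, against −0.02 over all protein-coding genes tested. SCG+PSC libraries enter both this comparison and the first, and SCG+MEF libraries both this one and the second. In SCG+PSC and SCG+MEF, each against SCG, Chrm1 differed by −0.30 and 0.26, Chrnb4 by −0.40 and 0.27, and Chrna3 by −0.30 and 0.13. Chrna5 differed by −0.13 and 0.41, and Chrna7 by 0.23 and 0.60.

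**Figure D3:**
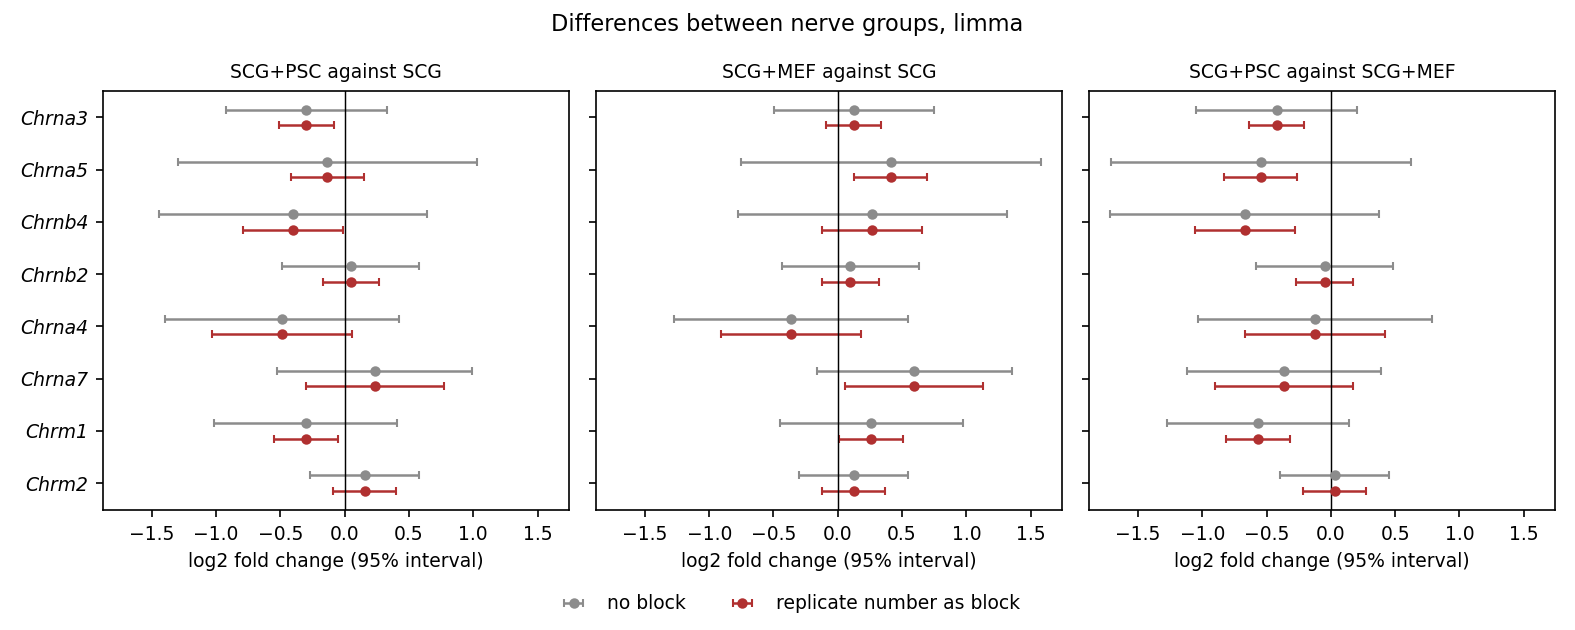
Log2 fold change (horizontal axis) of each receptor gene in the 3 comparisons of nerve groups, as estimated by limma without a block (grey) and with the replicate number as a block (red); bars are 95% intervals, unadjusted for the number of genes. The estimates are the same in both fits and the intervals narrow with the block, most for Chrna5, and in the right panel the intervals of Chrna3, Chrna5, Chrnb4 and Chrm1 with the block lie below 0.

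**Figure D4:**
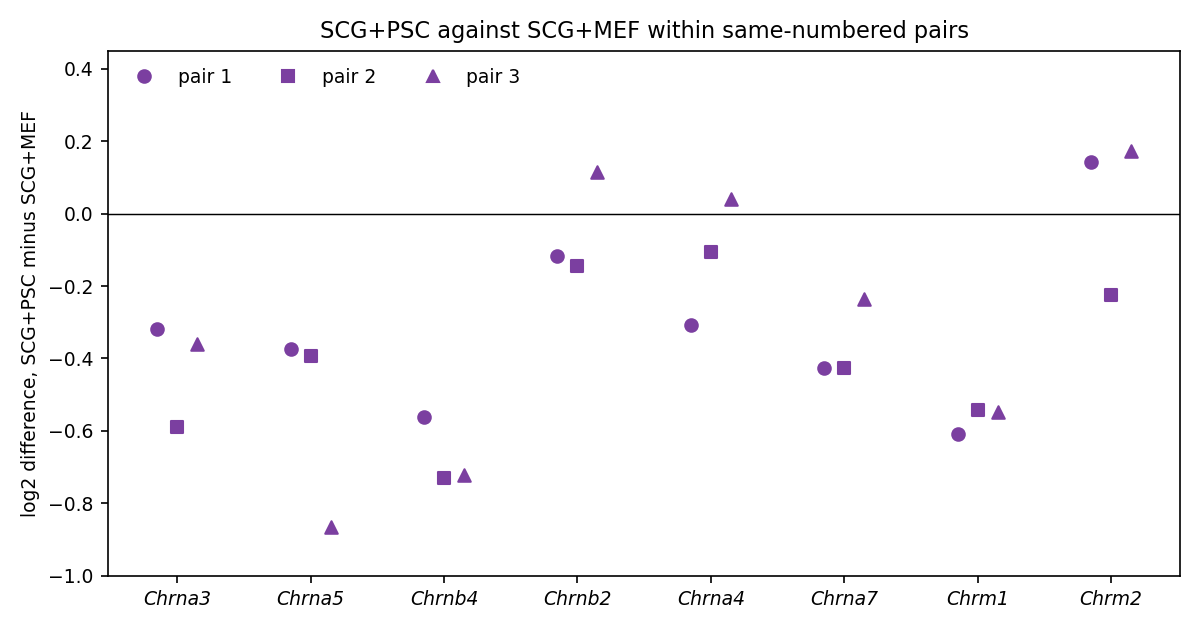
Log2 difference (vertical axis) between the SCG+PSC and the SCG+MEF library of the same replicate number for each receptor gene; shapes give the number. In 5 genes all points lie below 0, and the 3 Chrm1 points lie between −0.61 and −0.54.

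The receptor genes were next set beside genes listed as general markers of neurons. The 13 pan-neuronal markers (with Prph, Tubb3 and Stmn2 the highest in SCG) had a median difference of −0.005 in SCG+PSC against SCG, 0.14 in SCG+MEF against SCG and −0.10 in SCG+PSC against SCG+MEF, and 0 of 13 were called in any of these comparisons with or without the block. In SCG+PSC against SCG+MEF, 11 of these 13 markers were below 0. The 7 noradrenergic markers had medians of 0.11, 0.30 and −0.19, with 0 of 7 called, and all 7 were lower in SCG+PSC than in SCG+MEF. After subtracting the mean log2 level of the pan-neuronal markers in each library, Chrm1 differed by −0.44 (SE 0.0996) between SCG+PSC and SCG+MEF. Chrnb4 differed by −0.54 (SE 0.240) and Chrna3 by −0.30 (SE 0.126), and each of these 3 genes was lower in 3 of 3 pairs. The exact 2-sided permutation p was 0.1 in each case, the smallest that 3 against 3 libraries allow. The test and these SEs treat the libraries as independent groups and make no use of the same-numbered pairs. Chrna5 (−0.42, SE 0.415) and Chrna7 (−0.24, SE 0.284) were also lower in 3 of 3 pairs, with an exact p of 0.5 each, and Chrna4 differed by 0.00103 (exact p = 1). Chrnb2 and Chrm2 were higher per marker in 3 of 3 pairs, by 0.08 (SE 0.0677, exact p = 0.4) and 0.16 (SE 0.160, exact p = 0.5). In SCG+PSC against SCG, Chrna3 and Chrm1 each differed by −0.30 per marker with an exact p of 0.1. The other members had an exact p of 0.2 or more there.

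Markers of proliferation and of other cell types were followed between the same groups. With the block, 5 of 6 proliferation markers were called higher in SCG+PSC than in SCG+MEF, where 1.14% of genes were called in either direction. The differences were 1.08 in Mki67, 0.92 in Top2a, 1.05 in Cdk1, 0.99 in Ccnb1 and 0.84 in Mcm2, and all 6 markers were above 0. These 5 were also higher in SCG+PSC than in SCG, by 0.83 to 1.34. The 7 endothelial markers had median differences of 0.76 in SCG+PSC against SCG and 0.43 in each of the other comparisons, with 0 of 7 called. The summed level of the 6 proliferation markers was 5278 to 17508 in SCG, 6241 to 18742 in SCG+MEF and 14899 to 25153 in SCG+PSC. Fabp7, a gene of glia, was higher in SCG+PSC than in SCG+MEF by 0.56 (adjusted p = 0.0219) and Lum, a gene of fibroblasts, lower by −0.64 (adjusted p = 0.0443, limma with the block). As lists these were split, with 4 glial markers above and 4 below 0 (median 0.02) and 3 fibroblast markers above and 4 below 0 (median −0.02). None of these markers was called without the block. The other 7 glial markers, the other 6 fibroblast markers, the 9 macrophage markers and the remaining proliferation marker were not called in this comparison. Against SCG, the fibroblast markers had medians of 0.38 in SCG+PSC, with Lum called at 0.65, and 0.41 in SCG+MEF, with Lum (1.29) and Dcn (0.74) called with the block, and Fabp7 was lower in SCG+MEF at −0.50. The part of these cell types in the differences of Chrm1 and the nicotinic genes was not tested.

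Genes that act with the receptors were followed as lists. Of 11 genes for assembly of nicotinic receptors and Ly6 proteins that bind them, 0 were called in any nerve comparison with or without the block, with medians of 0.04 in all 3. Ric3, a chaperone of nicotinic subunits, had a mean of 945 in SCG, 1022 in SCG+MEF and 857 in SCG+PSC. Of 8 genes for synthesis, transport and breakdown of acetylcholine, 0 were called. Ache, which encodes acetylcholinesterase, was high in all groups at 7506, 6928 and 6430. Chat, which encodes choline acetyltransferase, was low at 32.1 in SCG, 8.94 in SCG+MEF and 15.9 in SCG+PSC, and differed by −1.98 (SE 0.45 with the block, adjusted p = 0.166) between SCG+MEF and SCG.

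Of 16 genes of muscarinic signalling and the M current, 0 were called. Gnaq, which encodes a Gq subunit, and Kcnq3, which encodes a potassium channel subunit, differed by −0.14 and −0.12 between SCG+PSC and SCG+MEF. Rgs2, which encodes a regulator of Gq signalling, differed by −0.49 (limma with the block, adjusted p = 0.0477), just inside the limit on p and just under that on the fold change. Of 6 further genes listed from chromosome 9, 0 were called. Psma4, Hykk, Ireb2 and Crabp1 lie upstream of Chrna5, while Morf4l1 (chr9:89971494-89996838) and Adamts7 (chr9:90045062-90090124) lie far from the cluster in the mouse. Psma4, Hykk and Ireb2 differed by 0.03, −0.12 and −0.10 between SCG+PSC and SCG+MEF. Of 10 transcription factors of sympathetic neurons, 0 were called, and Gata2 differed by −0.59 between SCG+PSC and SCG+MEF (limma, adjusted p = 0.0950 with the block).

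The clustered genes and Chrm1 varied together over the nerve libraries. Among 12134 protein-coding genes with a mean of at least 100, those with the highest Pearson r to Chrna3 over the 10 libraries were Myrip (0.990), Palmd (0.986), Chrnb4 (0.983), Rgs7 (0.983) and Sh3gl2 (0.983). Chrm1 stood at rank 57 (0.962), Chrna5 at rank 323 (0.932), Chrnb2 at rank 1706 (0.792) and Chrm2 at rank 3370 (0.532). These values describe likeness only, since the libraries share replicate numbers and a mixture of cells that moves many genes at once.

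Of 13 further cholinergic receptor genes, 4 reached a sum of 10 over the 9 libraries and 0 were called in any nerve comparison. Chrnb1, the β subunit of muscle, read 32.8 to 68.5 over the 10 nerve libraries, Chrm4, the other Gi-coupled muscarinic receptor, 21.9 to 69.7, and Chrm3 2.85 to 21.0. Per kilobase, Chrnb1 (26.1 ± 9.46, SD, n = 3) and Chrm4 (27.8 ± 18.0) had higher means in SCG than Chrna7 and Chrna4. Chrna6, Chrnd and Chrm5 were at 0 in all 10 libraries. A value of 0 at these depths leaves a low level undetected.

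In the stellate cells the ganglionic receptor was at or near 0. Chrna3 read 0, 0 and 0.963 in PSC and 0, 0 and 1.06 in PSC+SCG, and Chrnb4 read 0.846, 1.14 and 0.963 in PSC and 1.98, 0 and 2.13 in PSC+SCG. Chrm1 read 0, 1.14 and 0 in PSC and 0, 0 and 6.38 in PSC+SCG, and Chrna4 0.846, 0 and 0, then 0, 2.96 and 0. None of these 4 reached the sum of 10 over the 6 libraries that a test required.

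The other 4 members were measurable. Chrm2 read 48.2, 32.9 and 17.3 in PSC and 61.3, 60.2 and 12.8 in PSC+SCG, and Chrnb2 28.7, 29.5 and 15.4, then 21.8, 20.7 and 19.1. Chrna5 read 9.30, 3.41 and 13.5, then 2.97, 4.93 and 7.45, and Chrna7 4.23, 3.41 and 3.85, then 3.95, 3.95 and 2.13. Of these 4, 0 were called in PSC+SCG against PSC, where 0% of 14541 genes were (205 at an unadjusted p under 0.05), and 0 were called with the block, where 0.523% were. The interval for Chrm2 ran from −1.22 to 1.73 and that for Chrnb2 from −1.10 to 0.72, so that differences of more than 1 on the log2 scale lie inside both.

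The tables were normalized apart, so levels were set across them as CPM, which scales each library to its own total, per kilobase. On this scale Chrna3 was 26.3 ± 9.36 (SD, n = 3) in SCG and 0.00162 ± 0.00280 (n = 3) in PSC. Chrnb2 was 7.13 ± 2.07 and 0.0811 ± 0.0274, Chrm2 7.11 ± 0.665 and 0.139 ± 0.0683, and Chrna7 0.362 ± 0.0106 and 0.0189 ± 0.00234. Chrnb1 went the other way, with 0.763 ± 0.288 in SCG and 1.24 ± 0.229 in PSC, as did Chrm3 with 0.0518 ± 0.0291 and 0.126 ± 0.0511. No test was made between the tables. The 13 pan-neuronal markers summed to 1924 to 2762 in PSC, most of it Tubb3 (mean 1507) and Uchl1 (mean 582), while Elavl3 and Snap25 had means of 0.378 and 0.642. The 7 noradrenergic markers summed to 3468 to 5325, most of it Maoa (mean 4322), with Slc18a2 and Npy at 0 in all PSC libraries, and Insm1, a transcription factor gene of sympathetic neurons, was at 0 in all 6 libraries of that table.

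**Figure D5:**
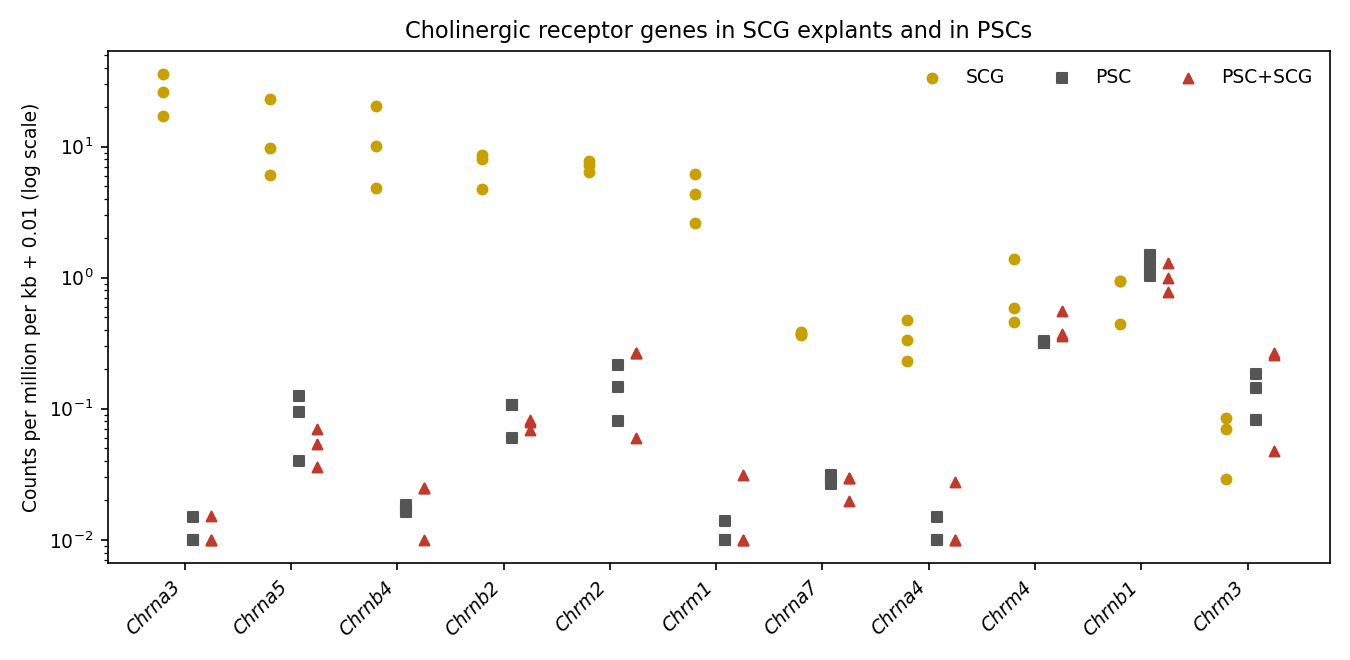
Level of 8 receptor genes and of Chrm4, Chrnb1 and Chrm3 in CPM per kilobase plus 0.01 (log axis) in the SCG (circles), PSC (squares) and PSC+SCG (triangles) libraries; points at 0.01 are libraries at 0. The SCG circles of the 8 members lie above all PSC and PSC+SCG points of the same gene, and the order turns for Chrnb1, where PSC squares lie above the circles.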

How the data were processed

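Bulk RNA (TruSeq Stranded mRNA) was measured in 16 libraries. The authors aligned reads with STAR 2.7.10b to GRCm39, counted them by strand on GENCODE M33 basic genes and divided the libraries of each table by DESeq2 1.38.3 size factors (R 4.2.2). The deposited values are thus a signal, the normalized count of each gene, and the nerve (10 libraries) and PSC (6 libraries) tables were normalized separately. Values divided by the smallest step of their library were whole within a tolerance of 0.01 in all 16 libraries. A further check of units accepted these recovered reads for 14 of the 16, with 31900689 to 41632381 reads on genes. SCG+PSC replicate 4 and PSC+SCG replicate 1 were used as normalized counts only. Depth limits genes near 0 counts, and intervals cover no more than the spread between libraries.

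Groups came from the library titles. Log2(normalized count + 1) was fitted with limma 3.58.1 in R 4.3.3 (empirical Bayes with trend) over genes with a sum of at least 10, on the 9 nerve libraries numbered 1 to 3, and on the 6 PSC libraries. The authors' model held the experimental batch, which no label used here ties to a library. Same-numbered libraries deviated together from their group means: the correlation across genes was 0.376 to 0.762 for 9 nerve pairs and 0.567 to 0.823 for 3 PSC pairs, against −0.573 to 0.091 and −0.696 to 0.335 for different numbers. Deviations sum to 0 within a group, so positive values for the same number push those for different numbers below 0. The latter are no separate evidence of pairing. The numbers were therefore also used as a block, and the pairing rests on them and on this check alone. Alternatives were pseudocounts of 0.5 and 8, other filters, quantile normalization, adjusted p alone, other sets of libraries, edgeR 4.0.16 and DESeq2 1.42.0 on recovered reads, and leaving out each library. Fits with the block that left out a whole replicate number, and DESeq2 with the block, were added after seeing the data. The limma fit was tested on simulated data with log2 changes larger than the estimates of the members in the main fits. That test gives no measure of the power to call the members.

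The 8 genes and the gene lists were chosen with earlier results of these data known. Named genes were all 8 members, the 5 genes most correlated with Chrna3 and, of each list, genes past the threshold in SCG+PSC against SCG or among the 3 highest in SCG. Further genes of the lists, such as Chat, Rgs2, Gata2 and Fabp7, were named after their values were seen. Coordinates, exon lengths and promoter windows came from GENCODE M39, a later release than the authors' on the same assembly. Permutation tests used scipy 1.17.1.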

Additional observations from a re-analysis of the deposited data

Results flagged for a closer look

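Chrm1 was singled out because its difference between SCG+PSC and SCG+MEF passed the threshold once the replicate number was a block. The log2 fold change was −0.57 (limma with the replicate block, adjusted p = 0.0433), and Chrm1 was lower in 3 of 3 same-numbered pairs. In no group of 4 libraries did a member have a library far outside the others by Dixon's criterion, and groups of 3 were not examined this way.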

How the results depend on the processing

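Directions of the members were stable under pseudocounts, filters, quantile normalization and tools, with 1 exception: Chrna5 in SCG+PSC against SCG was 0.0088 with all 4 SCG+PSC libraries. Most calls rest on the replicate block. In SCG+PSC against SCG, 3 protein-coding genes became 309 with the block, 8 with all 4 SCG+PSC libraries, 1 with only the 2 groups compared, 323 by edgeR with the block, 58 by DESeq2 and 415 by DESeq2 with the block. In SCG+MEF against SCG, 3 became 38 with the block, 1 without a filter, 1 with only the 2 groups, 36 by edgeR with the block, 21 by DESeq2 and 104 by DESeq2 with the block. In SCG+PSC against SCG+MEF, 0 became 181 with the block, 206 by edgeR with the block, 18 by DESeq2 and 365 by DESeq2 with the block, and the members called went from 0 to 1, 1 and 3 with the block by limma, edgeR and DESeq2. In PSC+SCG against PSC, 0 became 76 with the block and 1 without a filter. The block changed no other call of a member. The cause was not tested.

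With 1 library left out and no block, 0 members were called, and protein-coding genes called numbered 1 to 2 in SCG+PSC against SCG and 0 to 3 in SCG+MEF against SCG. Differences that changed sign ranged, in SCG+PSC against SCG, from −0.23 to 0.23 for Chrnb2, −0.047 to 0.33 for Chrm2, −0.11 to 0.49 for Chrna7, −0.57 to 0.41 for Chrna5, −0.94 to 0.13 for Chrnb4 and −0.65 to 0.013 for Chrm1. In SCG+MEF against SCG they ranged from −0.18 to 0.28 for Chrnb2, −0.0062 to 0.20 for Chrm2, −0.044 to 0.95 for Chrna5, −0.16 to 0.40 for Chrna3, −0.26 to 0.80 for Chrnb4 and −0.080 to 0.58 for Chrm1. In SCG+PSC against SCG+MEF they ranged from −0.43 to 0.18 for Chrna4, −0.18 to 0.13 for Chrnb2 and −0.17 to 0.21 for Chrm2, while Chrm1 (−0.78 to −0.37) and Chrnb4 (−0.93 to −0.39) stayed below 0. In PSC+SCG against PSC they ranged from −0.13 to 0.98 for Chrm2 and −0.29 to 0.040 for Chrna7.

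With the block and a whole replicate number left out, the protein-coding genes called without numbers 1, 2 and 3 were 54, 342 and 34 in SCG+PSC against SCG, 14, 53 and 6 in SCG+MEF against SCG, and 2, 273 and 3 in SCG+PSC against SCG+MEF. Members called without number 2 were 1 in the first and 2 in the last of these comparisons. Without number 2, Chrnb2 was −0.052 in SCG+PSC against SCG, and in SCG+MEF against SCG Chrnb2 was −0.051, Chrna3 −0.047 and Chrnb4 −0.056. Without number 3, Chrm2 was −0.020, Chrna7 −0.11 and Chrna5 0.12 in SCG+PSC against SCG, and Chrm2 was −0.041 in SCG+PSC against SCG+MEF, where it was −0.026 without number 1.

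Scaled by noradrenergic in place of pan-neuronal markers, Chrm1 differed by −0.31 and Chrnb2 by 0.20 between SCG+PSC and SCG+MEF, Chrna3 by −0.20 and Chrnb2 by −0.22 between SCG+MEF and SCG, and Chrnb2 by −0.022 between SCG+PSC and SCG. Count tests were not run for the PSC table, where the recovered reads of 1 library were not accepted. Low counts limit Chrna4 and Chrna7 in explants and all members in PSCs.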
